A study of Mus musculus with 17 samples.

Results

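miR-31 and miR-203 are microRNAs of epithelial cells, and each is cut from a hairpin precursor that can yield a mature RNA from its 5p and its 3p arm. The 4 mature arms, mmu-miR-31-5p, mmu-miR-31-3p, mmu-miR-203-3p and mmu-miR-203-5p (mmu for mouse, left out below), were taken by name from a count table of 1487 small RNAs, and all 4 were listed in it; 3 of the 4, and 1270 of the 1487, passed the count filter for testing. They were followed in 17 libraries of fecal exosomes, membrane vesicles shed by cells and recovered here from stool. Every animal was an IL-10 KO mouse on a C57BL/6J background, obtained at 4 weeks of age. These mice lack interleukin 10, a cytokine that restrains gut inflammation, and can develop colitis. The start-point group held 10 libraries from 10 mice (7 male, 3 female), and the end-point group 7 libraries (5 male, 2 female) from 6 of the same mice. End-point libraries 1 and 2 both carry the label of mouse 1. The labels give neither the age nor the disease score at each time point. Wild-type mice are not analysed here, so age and disease cannot be told apart.

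A mature microRNA guides a silencing complex to messenger RNAs that pair with its seed, bases 2 to 8. In most tissues the 5p arm of miR-31 and the 3p arm of miR-203 are the guide arms, and the opposite arms are mostly degraded. miR-31 is known for its rise in inflamed and cancerous colon epithelium and for its part in intestinal stem cell renewal, and miR-203 for restraining the stem-like state of stratified epithelium such as skin. Both have been linked to inflamed epithelium, which is why they are read together here.

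The mature sequences are shown because the 4 arms differ in what they can pair with, and capitals mark the seed. They are from RefSeq on GRCm38.p6, 5′ to 3′.
mmu-miR-31-5p: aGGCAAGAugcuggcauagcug
mmu-miR-31-3p: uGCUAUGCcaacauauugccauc
mmu-miR-203-3p: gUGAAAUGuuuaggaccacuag
mmu-miR-203-5p: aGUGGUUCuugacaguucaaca
No 2 of these seeds were alike. Of the 1679 mature mouse microRNA names in the reference, 0 others had the same bases 2 to 8 as any of the 4, so each arm is the sole holder of its seed in that table.

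The hairpins show how the arms of each gene sit together, with both mature arms in capitals.
Mir31: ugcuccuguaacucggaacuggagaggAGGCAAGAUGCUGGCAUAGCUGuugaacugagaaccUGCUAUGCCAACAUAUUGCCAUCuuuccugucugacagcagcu
Mir203: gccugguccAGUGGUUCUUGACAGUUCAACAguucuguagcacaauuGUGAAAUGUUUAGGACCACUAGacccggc
The Mir31 hairpin is on the minus strand at chr4:88910557-88910662 (GRCm38.p6). In the GENCODE annotation of GRCm38 it overlaps an exon of the long noncoding gene AL805899.1, and the nearest protein-coding gene is Ifne, 30356 bases away. The Mir203 hairpin is on the plus strand at chr12:112130880-112130955. It is intergenic there, between Aspg, 3321 bases away, and Kif26a, 15253 bases away.

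Library totals ran from 87527 to 178075 counts at the start-point and from 32320 to 161862 at the end-point. Totals under 75000 occurred in end-point libraries 1, 3 and 7 alone. The lowest share that could be seen, taken as 3 counts, was 16.8 CPM (the count over the library's total, scaled to a common total) in the deepest library and 92.8 CPM in the shallowest. Markers of intestinal epithelium were present in every library: the 8 of 9 listed microRNAs found in the table summed to 3226 to 19689 CPM at the start-point and 2970 to 38181 CPM at the end-point. Of those 8, miR-200a-3p was at 0 in 1 end-point library, and the others were at 0 in none.

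All 4 arms were of middling to low abundance, so their values rest on few counts. Together they held 1096 of 1379795 counts at the start-point, or 794 CPM, and 144 of 699186 counts at the end-point, or 206 CPM. By mean start-point CPM, miR-31-5p ranked 632 among the 1487 small RNAs, miR-31-3p 833, miR-203-3p 904 and miR-203-5p 1084. At the end-point miR-203-3p, at rank 1088, stood above miR-31-3p at 1279, miR-31-5p at 1312 and miR-203-5p at 1401. The standard deviations of neighbours in either order were larger than the gaps between their means. The arms are 22 or 23 bases long, so no length scaling was applied, and the order is a description only.

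**Figure D1:**
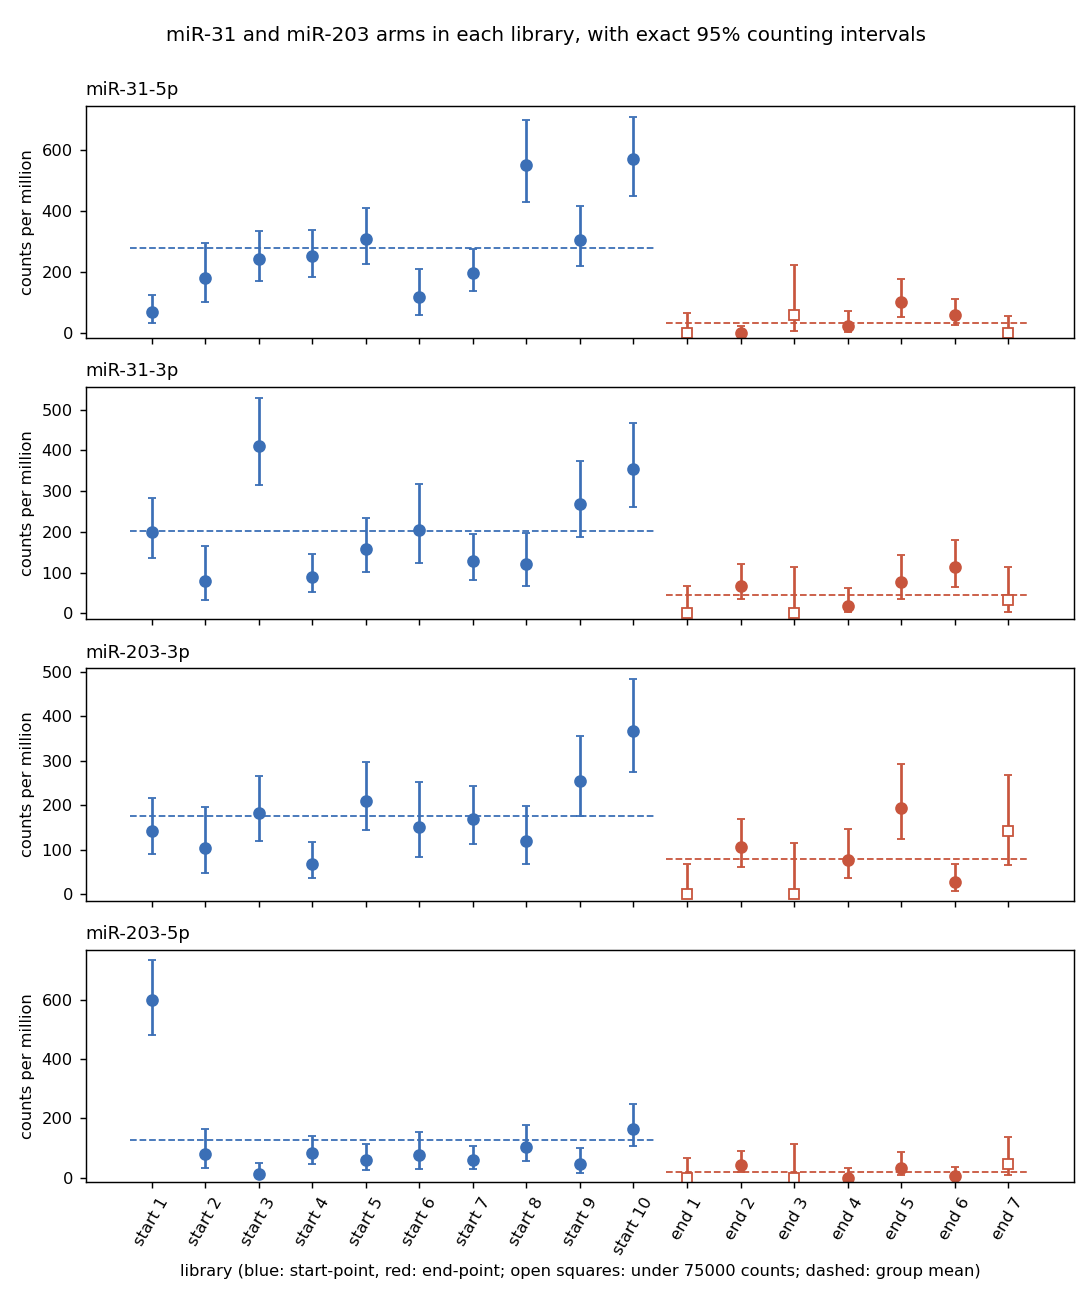
CPM of each arm (vertical axis, linear) in each of the 17 libraries, with exact 95% counting intervals; blue is start-point, red is end-point, dashed lines are group means and open squares are libraries under 75000 counts. For miR-31-5p and for miR-31-3p, 6 of 7 end-point libraries lie below the lowest start-point library of that arm. For miR-203-3p 3 of 7 do, and for miR-203-5p 4 of 7. The share of all small RNAs separated to this degree was not computed.

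miR-31-5p, the guide arm of miR-31, fell at the end-point. Its lowest, median and highest start-point values were 71.0, 248 and 569 CPM, from 11 to 79 counts. At the end-point it was 0 in library 1, 0 in library 2, 61.9 CPM in library 3, 25.7 in library 4, 101.3 in library 5, 59.6 in library 6 and 0 in library 7, from 0 to 12 counts. Every end-point library but library 5 was below the lowest start-point library, and only start-point library 1 was below the highest end-point library. By a stricter measure, the time points did not overlap at all for 5.12% of tested small RNAs with the end-point lower and for 0.472% with the end-point higher. miR-31-5p was not among these, since end-point library 5 overlapped. The share of small RNAs with a like partial separation was not computed. The start-point mean of miR-31-5p, 280.3 ± 166 CPM (SD, n = 10), was 7.90 times its end-point mean, 35.5 ± 39.8 CPM (SD, n = 7).

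In the test across the whole table, with TMM scaling, the log2 change of miR-31-5p was -2.27 ± 0.62 (SE), at an adjusted p of 0.00877 in edgeR. Its 95% interval, from that SE on 15 degrees of freedom, was -3.59 to -0.95. It passed the count filter mainly through start-point libraries, with 11 to 79 counts there and 0 to 12 at the end-point. With no filter its log2 change was -2.30 (edgeR adjusted p = 0.00865). As background, 31.6% of the 1270 small RNAs tested were called, 15.5% lower and 16.1% higher, and miR-31-5p ranked 177 by p. Fewer vesicles from epithelial cells and less miR-31-5p per vesicle cannot be told apart. The test treats the 7 end-point libraries as independent, although 2 share a mouse label.

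By library totals, not all zeros of miR-31-5p were in shallow libraries. At the pooled start-point share, end-point library 2 with 161862 counts would have held 45.5 counts of miR-31-5p, and it held 0. Taken as 3 counts, a 0 there allows up to 18.5 CPM, and the exact 95% upper limit is 22.8 CPM. End-point libraries 1 and 7 would have held 15.4 and 18.0 counts and also held 0, which allows up to 54.8 and 47.0 CPM as 3 counts, with exact upper limits of 67.4 and 57.8 CPM. Zeros were not particular to miR-31-5p there. Of the 1487 small RNAs, 1043 were detected in library 1, 1377 in library 2, 1166 in library 3 and 1254 in library 7. Start-point libraries had 1435 to 1473 detected. Whether miR-31-5p was lost more than other small RNAs of like abundance in these libraries was not tested. By either bound libraries 1, 2 and 7 lie under the lowest start-point value, 71.0 CPM. That value itself rests on 11 counts, with an exact 95% interval of 35.4 to 127 CPM. On library totals, the upper limit of library 2 lies below that interval, and those of libraries 1 and 7 lie within it. TMM factors do not enter these limits. Library 2 had the lowest factor of all libraries, 0.38, against 1.33 in library 1 and 1.08 in library 7. With its factor, library 2 would have a lower expected count and a higher limit, which were not computed. Its 0 is therefore less firm on the scale of the tests. Library 3, the shallowest, held 2 counts where 9.09 would have been expected, and its exact interval of 7.49 to 224 CPM reached well into the start-point range. These limits and intervals cover counting error only, and whether the counts include PCR copies is not stated. In the 4 end-point libraries above 75000 counts the mean was 46.6 ± 43.9 CPM (SD, n = 4), and the fit without the 3 shallow libraries gave -1.58 with an edgeR adjusted p of 0.0436. In male libraries only it was -1.94 and no longer called (edgeR adjusted p = 0.0877).

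miR-31-3p, the opposite arm, was also lower on average, but did not pass. Its lowest, median and highest start-point values were 80.0, 179 and 412 CPM. End-point libraries 1 and 3 held 0, library 2 held 68.0 CPM, library 4 held 17.1, library 5 held 76.0, library 6 held 112.5 and library 7 held 31.3. Only library 6 was above the lowest start-point library, so the groups overlapped in a narrow range. Its start-point mean was 201.3 ± 112 CPM (SD, n = 10), and its end-point mean 43.6 ± 42.9 CPM (SD, n = 7). The log2 change, -1.24 ± 0.59 (SE), had an adjusted p of 0.110 in edgeR, and an unadjusted edgeR p of 0.0477. Its 95% interval, again from the SE on 15 degrees of freedom, was -2.50 to 0.03. That interval is not the edgeR test's own, so it can hold 0 where the unadjusted p is under 0.05. Its call depended on scaling: with library totals only it was -2.03 (edgeR adjusted p = 0.0116). Without the 3 shallow libraries it was -0.41 (edgeR adjusted p = 0.539).

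miR-203-3p, the guide arm of miR-203, showed no difference past the threshold. Its lowest, median and highest start-point values were 67.4, 159.7 and 368 CPM. End-point libraries 1 and 3 held 0, library 2 held 105 CPM, library 4 held 77.0, library 5 held 194, library 6 held 26.5 and library 7 held 140.9. Libraries 2, 4, 5 and 7 lay inside the start-point range, and the 3 others lay below it. Its start-point mean was 176 ± 85.7 CPM (SD, n = 10), and its end-point mean 77.7 ± 74.2 CPM (SD, n = 7). With TMM scaling the log2 change was -0.30 ± 0.58 (SE), at an adjusted p of 0.728 in edgeR. Its 95% interval, -1.53 to 0.94, holds both falls and rises. Its direction was not fixed either: it turned to 0.38 without the 3 shallow libraries and to 0.031 in male libraries only.

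miR-203-5p, the opposite arm, was too sparse to be tested with the others, since it did not pass the count filter; the remaining 3 arms did. Its lowest, median and highest start-point values were 13.5, 77.6 and 600.0 CPM, and the highest, from start-point library 1 with 93 counts, was 3.62 times the next. At the end-point it held 15 counts in all, with 0 in libraries 1, 3 and 4, 43.2 CPM in library 2, 33.8 in library 5, 6.62 in library 6 and 47.0 in library 7. Its start-point mean was 129 ± 170.4 CPM (SD, n = 10), its end-point mean 18.7 ± 21.7 CPM (SD, n = 7), and without start-point library 1 the start-point mean was 76.2 ± 42.3 CPM. With no filter, edgeR gave -2.10 with an adjusted p of 0.0624.

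Scaling moved all small RNAs together. The median log2 fold change over the 1270 tested was -0.19 under TMM scaling, and scaling by library totals moved it to -0.68; of the calls, 50.9% were in the higher direction with the first and 29.4% with the second. Relative to those medians, miR-31-5p was at -2.08 and -2.25, miR-31-3p at -1.05 and -1.35, and miR-203-3p at -0.10 and -0.43. The gap between miR-31-5p and the bulk of small RNAs was similar on either scale. Since scaling moves all small RNAs together, that likeness was largely built in and is a description only.

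**Figure D2:**
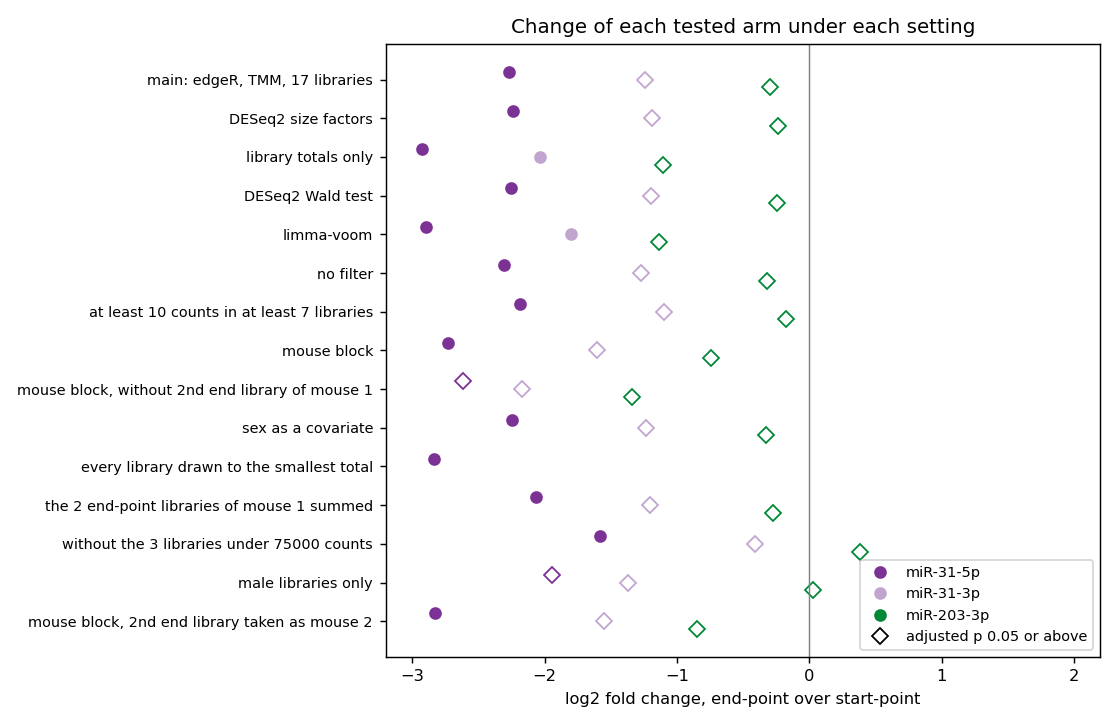
Log2 fold change of the 3 tested arms, end-point over start-point (horizontal axis), under each setting other than leaving out single libraries; filled circles have an adjusted p under 0.05 and open diamonds do not. miR-31-5p lies between -2.93 and -1.58 in every setting shown, and miR-203-3p crosses 0 in male libraries only and without the 3 libraries under 75000 counts.

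Within mice, miR-31-5p was lower at the end-point in 6 of the 6 mice with both time points. The end-point minus start-point differences in log2 CPM were -2.71 in mouse 1 (its pair of end-point libraries averaged), -2.00 in mouse 3, -2.31 in mouse 5, -0.82 in mouse 7, -2.03 in mouse 9 and -3.65 in mouse 11. Mouse 7, whose end-point library is number 5, moved least. For the other arms 5 of 6 mice were lower: the median difference was -1.90 for miR-31-3p, with mouse 9 higher by 0.78, -0.70 for miR-203-3p, with mouse 7 higher by 0.26, and -1.30 for miR-203-5p, with mouse 11 higher by 0.45. A log2 CPM of a library at 0 is set by the prior count, so differences that end at 0 depend on it. For miR-31-5p this holds for mice 1 and 11, which had the largest falls. The share of all tested small RNAs that were lower in every one of these mice was not computed.

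With mouse as a block in the whole-table fit, the log2 change of miR-31-5p was -2.73 ± 0.75 (SE), at an adjusted p of 0.0466 in edgeR. That block left 77 of 1270 small RNAs called, or 6.06% (2.99% higher and 3.07% lower), where the fit without it called 401. Leaving out the second end-point library of mouse 1 as well ended that call narrowly, at -2.62 with an edgeR adjusted p of 0.0529. miR-31-3p, at -1.60, and miR-203-3p, at -0.74, had edgeR adjusted p of 0.255 and 0.585 with the block.

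**Figure D3:**
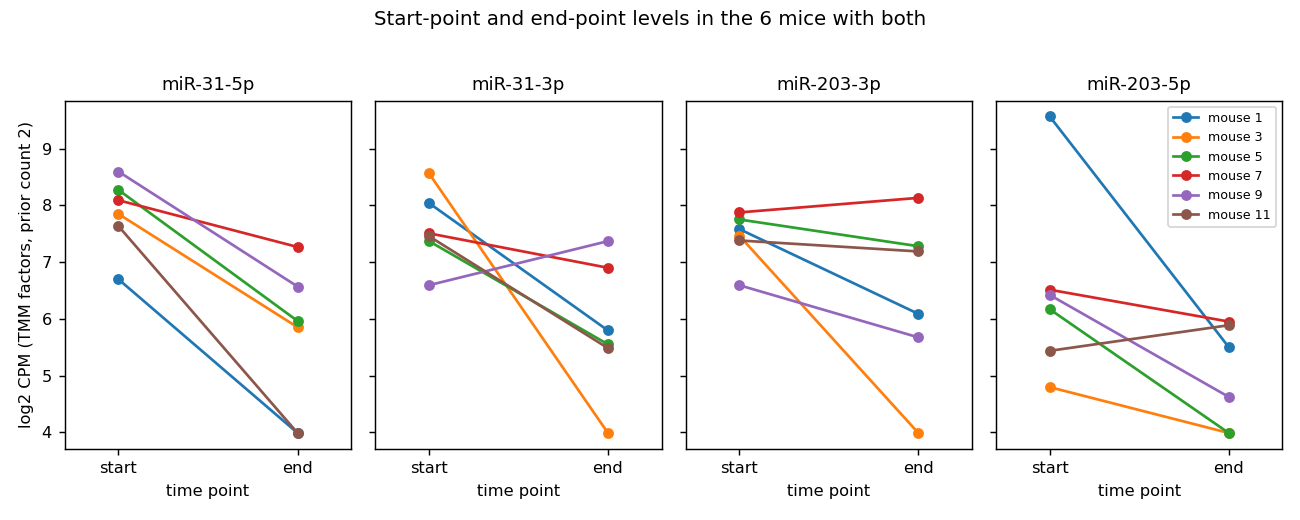
Log2 CPM (vertical axis, TMM factors and prior count 2) of each arm at the start-point and the end-point in the 6 mice with both, one line a mouse. All 6 lines fall for miR-31-5p, while mouse 9 rises for miR-31-3p, mouse 7 for miR-203-3p and mouse 11 for miR-203-5p.

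The ratio of the arms of 1 hairpin within a library is a readout that library scaling cannot shift. At the start-point the 5p arm made up 58.2% (exact 95% interval 54.3 to 61.9%) of the 667 miR-31 counts pooled over libraries, and ran from 26.2 to 82.1% in single libraries. In 7 of 10 start-point libraries the 5p arm was the more abundant and in 3 the 3p arm was. The start-point miR-31 arms were closer in number than those of most microRNAs: their pooled counts differed by 0.48 on the log2 scale, against a median of 1.32 over 334 arm pairs, of which 63 were more even.

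At the end-point the pooled 5p share of miR-31 was 38.8% (exact 95% interval 27.1 to 51.5%) of 67 counts. Library 2 held 0 of 11 counts on the 5p arm, library 6 held 9 of 26 and library 5 held 12 of 21, and the 4 remaining libraries held 5 or fewer counts of both arms. The change in the log2 ratio of 5p to 3p was -1.07 ± 0.80 (SE), with an adjusted p of 0.335 in limma over the 334 pairs, of which 28.4% were called, 15% higher and 13.5% lower. The value rested on few libraries. It was -0.42 (limma adjusted p = 0.694) without end-point library 2 and -2.09 (limma adjusted p = 0.118) without libraries under 10 counts of the pair, a setting added after seeing the data. It was called in 0 of 25 alternatives, over which the limma adjusted p ran from 0.118 to 0.835. A difference between the changes of the miR-31 arms was therefore not shown.

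miR-203 had more 3p than 5p counts in 8 of 10 start-point libraries. The 5p arm held 43.1% (exact 95% interval 38.4 to 48.0%) of 429 pooled counts, with single libraries from 6.90 to 80.9%. Of these counts start-point library 1 alone gave 93 on the 5p arm, where it was 80.9% of that library's pair. At the end-point the 5p share was 19.5% (exact 95% interval 11.3 to 30.1%) of 77 counts, with single libraries from 0 to 29.2%, and no library held more 5p than 3p. The pooled intervals cover counting error only, not the spread between libraries. The log2 ratio of 5p to 3p averaged -0.93 ± 1.52 (SD, n = 10) in start-point libraries, and -1.55 ± 1.47 (SD, n = 7) in end-point ones. End-point libraries 1 and 3 held no count of either arm, so their ratio is the pseudocount's alone, and the 5 others averaged -2.18 ± 1.24 (SD, n = 5). The groups overlapped, and the pair was not tested because its 5p arm did not pass the filter.

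**Figure D4:**
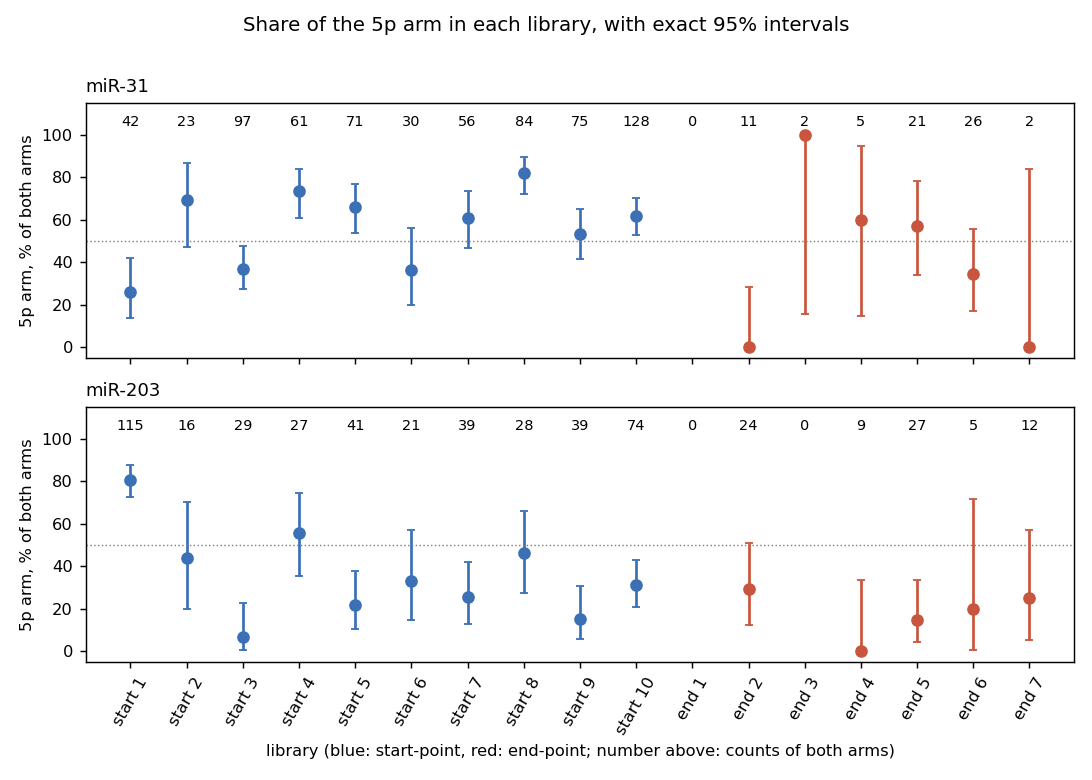
Share of the 5p arm among the counts of both arms (vertical axis, percent) in each library, for miR-31 and miR-203, with exact 95% intervals; the number above each point is the count of both arms. End-point intervals are wide, since no end-point library holds more than 27 counts of a pair.

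The guide arms were set against each other in the same way. The miR-31-5p count was above that of miR-203-3p in 8 of 10 start-point libraries and in 2 of 7 end-point libraries, with 4 below and 1 at 0 for both. The log2 ratio of miR-31-5p to miR-203-3p averaged 0.56 ± 0.92 (SD, n = 10) in start-point libraries, and -1.19 ± 2.71 (SD, n = 7) in end-point ones. The difference was -1.75 (exact permutation over 19448 choices of libraries, two-sided p = 0.0736). It was called or not according to which libraries entered, and 20 of 25 alternatives left it uncalled. Among those, it was -1.09 without end-point library 2 (exact permutation p = 0.196) and -1.39 in male libraries only (exact permutation p = 0.235). Without the 3 shallow libraries it was -2.16 (exact permutation p = 0.0250). It was -2.34 without end-point library 3 alone (exact permutation p = 0.00999) and -2.13 without end-point library 6 alone (exact permutation p = 0.0345). Within mice it was lower in 5 of 6, with a mean change of -1.40 on the log2 scale (exact permutation of signs, two-sided p = 0.156). miR-31-5p passing its test and miR-203-3p not passing thus do not by themselves show that the guide arms changed differently.

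Sex was compared with time point in the model. This fit treats the 17 libraries as independent, although 6 of the 10 mice gave libraries at both time points. Its count filter, set on groups of sex by time point, also let in miR-203-5p. In CPM, female start-point libraries held more miR-31-5p, 476 ± 147 (SD, n = 3) against 196 ± 81.5 (SD, n = 7) in males, with 2 female values, 552 and 569 CPM, above every male value and the third, 307 CPM, just under the highest male value of 308. Female start-point libraries also had TMM factors of 1.49 to 1.90, against 0.77 to 1.29 in males. At the end-point miR-31-5p averaged 29.8 ± 42.1 CPM (SD, n = 2) in females and 37.8 ± 43.6 (SD, n = 5) in males. Over both time points and with TMM factors, its female minus male log2 difference was 0.31 ± 0.61 (SE) with an edgeR adjusted p of 0.909. With library totals only it was 0.85 (edgeR adjusted p = 0.559). A sex difference at the start-point alone was not tested. None of the 4 arms was called for sex by edgeR, which called 0 of 1462 small RNAs, or 0%, with 125 at an unadjusted p under 0.05, and DESeq2 called 35. DESeq2 gave the 4 arms no adjusted p for sex, and their unadjusted DESeq2 p ran from 0.447 to 0.839. By edgeR with library totals only, 1 small RNA was called, not one of the 4. Nor was any of the 4 called for a sex difference in the change over time, where edgeR called 0 of 1462 with 75 at an unadjusted p under 0.05, and DESeq2 called 2. With 2 female end-point libraries, the interaction of miR-31-5p, -0.66 ± 1.35 (SE), was known only loosely.

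MicroRNAs listed for intestinal epithelium moved in both directions, and the cells that shed them were not determined here. Of the 8 tested microRNAs of the intestinal epithelium list, edgeR called 3 lower and 3 higher, against 31.6% called in all. miR-192-5p (-2.77), miR-194-5p (-2.31) and miR-375-3p (-2.30) fell alongside miR-31-5p, with edgeR adjusted p of 0.00426, 0.0207 and 0.0336. miR-215-5p (3.51), miR-141-3p (2.87) and miR-200b-3p (3.28) rose, with edgeR adjusted p of 0.00245, 0.00379 and 0.0367. The median log2 fold change of the 8 was -0.66, beside -0.19 over all tested. With the mouse block their edgeR adjusted p ran from 0.0699 to 0.848.

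miR-203-3p was 1 of 3 listed markers of stratified epithelium, and 0 of the 3 were called, where 31.6% were over all small RNAs tested. The other 2 did not pass, and are named here after their values were seen. miR-205-5p, at 392 CPM on average at the start-point and 233 at the end-point, changed by -0.49 on the log2 scale (edgeR adjusted p = 0.483), and miR-184-3p by -0.24 (edgeR adjusted p = 0.666).

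Among the other microRNAs linked to colitis, 11 of 16 were in the table, 10 were tested, 3 were called higher and 1 lower, with a median log2 fold change of 0.37, beside 31.6% called and a median of -0.19 over all tested. Higher were miR-122-5p, a liver microRNA (5.29, edgeR adjusted p of 0.000233), miR-215-5p and miR-223-3p, a microRNA of neutrophils (2.38, edgeR adjusted p of 0.00417), and lower was miR-192-5p. With the mouse block 1 of the 10 was called, miR-122-5p, beside 6.06% over all. miR-21a-5p, which rises in many inflamed tissues, was at -0.71 (edgeR adjusted p = 0.272) and is named here after its value was seen.

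Of the lists for other cell types, 5 leukocyte microRNAs were tested, with miR-223-3p higher and miR-342-3p lower (-1.61, edgeR adjusted p = 0.0125), and 4 of smooth muscle and stroma, with miR-143-3p higher (2.87, edgeR adjusted p = 0.00155). Over all tested, 31.6% were called. The other stromal microRNAs tested were not called and had negative changes: miR-133a-3p (-1.95), miR-145a-5p (-0.30) and miR-214-3p (-0.20). The median log2 fold change was -0.25 for the stromal list and 0.06 for the leukocyte list. With the mouse block 0 members of either list were called, beside 6.06% over all. The edgeR adjusted p with the block was 0.237 for miR-223-3p, 0.146 for miR-342-3p and 0.0699 for miR-143-3p. The summed leukocyte list was 1101 to 4174 CPM at the start-point and 702 to 3414 CPM at the end-point, and the stromal list 413 to 2276 and 339.8 to 12371 CPM. The red cell list, with miR-451a at 0 in 8 of 10 start-point and 3 of 7 end-point libraries, summed to 149 to 1006 and 12.4 to 529.6 CPM. The part of these other cells in the fall of miR-31-5p was not tested.

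Likeness across libraries was described by rank correlation. After each time point's mean was removed, Spearman's rho between miR-31-5p and miR-31-3p was 0.02 over 17 libraries, and between miR-31-5p and miR-203-3p it was -0.02, whereas between miR-31-3p and miR-203-3p it was 0.60. The small RNAs whose deviations most resembled those of miR-31-5p were miR-470-3p (0.88), miR-7671-5p (0.87) and miR-344d-3-5p (0.75). For miR-31-3p they were miR-222-3p (0.88), miR-125a-5p (0.84) and miR-6902-5p (0.80), and for miR-203-3p miR-6385 (0.91), miR-7009-5p (0.80) and let-7a-5p (0.76). These are the highest of 1269 values for each arm and share libraries, depth and zeros, so they describe these counts only. Among them miR-7671-5p rose by 2.91 on the log2 scale (edgeR adjusted p = 0.00151) and miR-7009-5p by 4.49 (edgeR adjusted p = 6.5e-06), where miR-31-5p fell and miR-203-3p did not pass.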

How the data were processed

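Small RNA libraries were made from fecal exosomal RNA with the QIAseq miRNA kit, which carries unique molecular identifiers, per the labels' protocols. The authors deposited 1 table of counts per small RNA and library. The submitters' processing notes name bcl2fastq and GRCm38; the aligner, counting tool, annotation and use of the identifiers are not given in the sources used here. How reads shared by similar microRNAs were assigned is not stated.

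From these counts, edgeR 4.0.16 in R 4.3.3 (quasi-likelihood F-test, TMM factors, filterByExpr) was fitted to all 17 libraries, with Benjamini-Hochberg adjustment over all small RNAs tested and calls at an adjusted p under 0.05. Models held time point only, both time point and sex, or their interaction. Arm ratios, log2 of counts plus 0.5, were fitted in limma 3.58.1. CPM values are counts over library totals; for log2 CPM a prior count of 2 was added and TMM factors applied. SE is the fold change over the root of its F. Alternatives used DESeq2 1.42.0, limma-voom and others given below. The exact permutation test covered 1 ratio; shares have exact Clopper-Pearson intervals.

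Mouse identity in the labels pairs libraries. Same-mouse libraries deviated from their time point means with correlations of -0.07 to 0.26 (mean 0.09, 7 pairs). No pair of libraries agreed within sampling noise (chi-square per degree of freedom at least 10.1 over 136 pairs).

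The named small RNAs are the 4 arms, any sharing a seed, the 3 most alike to each tested arm, and called members of fixed lists. Members and lists were chosen with earlier results of these data known. RefSeq matched all 4 arms, and 1254 of the 1439 mature microRNA names in the table. The scripts were tested on simulated counts.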

Additional observations from a re-analysis of the deposited data

Results flagged for a closer look

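One value stood far from its group. In start-point library 1, from mouse 1, miR-203-5p was at 600.0 CPM (93 counts), and its gap to the next library was 0.74 of the range of the 10 start-point libraries. The 9 others averaged 76.2 ± 42.3 CPM. In the same library miR-31-5p, at 71.0 CPM, was the lowest of the start-point. Of 18 sets of values examined in this way 1 was picked out. The rule's nominal rate by chance is about 1 in 20, and it was not measured on these counts.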

How the results depend on the processing

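miR-31-5p was lower in all 31 alternatives and stayed called in 29. It lost its call in male libraries only (-1.94, edgeR adjusted p of 0.0877) and with the replicate block on mouse without the second end-point library of mouse 1 (-2.62, adjusted p of 0.0529); other adjusted p ran from 0.00013 to 0.0466, and leaving out single libraries gave -2.90 to -1.90. miR-31-3p gained a call with library totals only (-2.03) and limma-voom (-1.80), and miR-203-3p reversed without the 3 libraries under 75000 counts (0.38) and in male libraries only (0.031). The guide ratio passed with a pseudocount of 5 (-1.07, exact permutation p of 0.0258), without the 3 shallow libraries (-2.16) and, the same set, without libraries under 10 counts of both arms (-2.16), an alternative added after seeing the data; single libraries left out gave -2.34 to -1.09. The number of calls over all small RNAs, 401, moved to 77 with the mouse block, to 70 with it and without the second library of mouse 1, to 98 with that library taken as mouse 2 (added after seeing the data), to 168 with every library drawn to 32320 counts, where 542 small RNAs in place of 1270 were tested and the share called, 31.0%, was near the 31.6% of all counts, and to 155 of 1200 in male libraries; DESeq2 gave 521. Sex differences of miR-31-3p (0.64) and miR-203-3p (0.47) reversed with library totals only, and the sex by time point term of miR-203-5p reversed without the shallow libraries (-0.91). The block changed no call of the 3 tested arms. The cause of these changes was not tested. With every library drawn down, miR-31-3p and miR-203-3p did not pass the filter, and for time point miR-203-5p was fitted only with no filter, so the other scalings, tests and the block gave no value for it. Leaving out libraries at 0 for both RNAs of a ratio (added after seeing the data) gave -1.18 for the miR-31 arms, -1.24 for the miR-203 arms against -0.62 with them, and -1.95 (exact permutation p of 0.0638) for the guide ratio. With 0 to 23 end-point counts an arm, depth limits what small differences can be seen.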

Other observations

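End-point libraries 1 and 2, which carry the same mouse label, differed in these arms. Library 1 held 0 counts of all 4 among 54747. Its zeros were not particular to these arms, since 1043 of the 1487 small RNAs were detected in it, against 1377 in library 2. Library 2 held 0 of miR-31-5p, 11 of miR-31-3p, 17 of miR-203-3p and 7 of miR-203-5p among 161862. At the pooled start-point shares library 1 would have held 11.1, 9.68 and 7.34 counts of the last 3.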
